A study of Mus musculus with 10 samples.

Results

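The 29 genes described here make cholesterol, sense it, or move and store it. They were chosen by name from the known pathway, at a time when earlier results of these data were known. All 29 were present in both deposited tables, among 16667 genes with normalized counts, and all 29 were among the 14203 genes tested. By role, 7 act from acetyl-CoA to farnesyl diphosphate and 11 act from the making of squalene to cholesterol. A further 4 control the pathway through the transcription factor SREBP2, and 7 belong to sterol transport, storage and the liver X receptors (LXR). The RNA came from the visceral fat of 10 C57BL/6 mice, wild type in genotype and 10 weeks old. Of these, 5 had undergone sham surgery and 5 carried an orthotopic KPC tumour, a transplanted pancreatic cancer from a mouse model of that disease that was grown in the pancreas. The labels name neither the sex of the mice nor the tumour line or the days since inoculation. The tissue was taken whole, so fewer cells of a type and less RNA per cell cannot be told apart in any value below.

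Cells build cholesterol from acetyl-CoA through mevalonate, the isoprenoid farnesyl diphosphate, squalene and lanosterol. When sterol in the endoplasmic reticulum is scarce, the escort protein SCAP carries SREBP2 to the Golgi, where it is cut and released to switch on nearly all enzymes of the route. When sterol is plentiful, INSIG proteins hold the complex back, and oxysterols activate LXR, which raises export pumps such as ABCA1 and ABCG1. Fat tissue holds much of the body's free cholesterol, mostly at the surface of the lipid droplet, and takes up far more than it makes.

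Promoter sequence was shown for 4 genes of the synthesis and feedback arms and, for contrast, for 1 export gene, because most enzymes were low in the same mice. Hmgcs1, which was not, is shown for its sterol element core. The windows are RefSeq sequence on GRCm38.p6, read 5′ to 3′ on the strand of the gene and ending before both the RefSeq and the GENCODE start. Capitals mark the NF-Y box CCAAT on either strand (ATTGG where it lies on the other strand) and, in Hmgcs1, the sterol element core TCACNCCAC.
Hmgcs1 (chr13:119690101-119690350, plus strand): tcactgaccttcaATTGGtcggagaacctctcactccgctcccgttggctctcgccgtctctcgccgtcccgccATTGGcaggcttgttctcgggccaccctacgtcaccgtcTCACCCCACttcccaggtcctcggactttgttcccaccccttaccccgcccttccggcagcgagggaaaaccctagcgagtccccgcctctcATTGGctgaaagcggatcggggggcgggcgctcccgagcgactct
Lss (chr10:76531355-76531587, plus strand): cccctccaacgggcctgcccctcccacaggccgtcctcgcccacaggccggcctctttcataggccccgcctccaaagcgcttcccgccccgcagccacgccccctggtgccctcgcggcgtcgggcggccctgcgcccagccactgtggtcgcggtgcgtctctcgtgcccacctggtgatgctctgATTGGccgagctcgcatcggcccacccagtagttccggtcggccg
Sc5d (chr9:42264301-42264550, minus strand): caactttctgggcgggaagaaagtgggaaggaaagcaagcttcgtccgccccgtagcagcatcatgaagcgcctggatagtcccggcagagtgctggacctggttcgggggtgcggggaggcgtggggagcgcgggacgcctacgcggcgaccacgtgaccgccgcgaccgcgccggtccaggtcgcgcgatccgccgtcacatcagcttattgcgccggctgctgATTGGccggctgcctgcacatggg
Insig1 (chr5:28071162-28071362, plus strand): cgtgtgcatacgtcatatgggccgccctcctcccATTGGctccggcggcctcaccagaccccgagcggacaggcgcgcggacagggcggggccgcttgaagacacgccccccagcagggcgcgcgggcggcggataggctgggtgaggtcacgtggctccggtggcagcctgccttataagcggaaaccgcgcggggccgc
Abca1 (chr4:53159896-53160145, minus strand): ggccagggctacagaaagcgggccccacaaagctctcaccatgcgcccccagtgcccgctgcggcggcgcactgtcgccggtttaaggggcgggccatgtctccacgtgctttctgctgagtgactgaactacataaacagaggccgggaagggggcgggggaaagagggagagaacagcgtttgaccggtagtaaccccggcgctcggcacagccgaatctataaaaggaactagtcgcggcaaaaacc
Over windows of 300 bases, from 250 before to 50 after each RefSeq start, 24 of the 29 genes had an entry, with 31 windows in all. The letters CCAAT occurred on either strand for 19 of these 24 genes and for 14 of the 15 synthesis enzymes with an entry, where 41.1% of all 27025 genes with an entry held them in any window. By window they were in 19 of 31, against 37.4% of all 32851 windows. The Acat2, Scap, Abca1, Nr1h2 and Nr1h3 windows held none. In the windows of Idi1, Cyp51, Msmo1 and Dhcr7, the part before both the RefSeq and the GENCODE start held no CCAAT. Tm7sf2, also counted as holding CCAAT, had no part of its window before both starts. The classical sterol regulatory element, searched by its full letters, was in none of the 31 windows and in 0.0913% of all windows. Its shorter core TCACNCCAC, searched after the first search was seen, was in 1 of the 31 windows, that of Hmgcs1, and in 1.24% of all windows. The LXR element of the DR4 type was searched only by the exact letters of its consensus. That exact form was in none of the 31 windows and in 0.0152% of all windows. Variants that differ from it in any letter were not searched, so the windows, including that of Abca1, may hold such elements. Both strands were searched, no overlap between motifs was counted, and a match or its lack describes these letters only.

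Libraries summed to between 20941242 and 24449863 normalized counts. Levels are given in TPM, the length-corrected share of all transcripts, and differences as log2(normalized count + 1) in KPC minus sham with the SE by limma. Where a pair of means is given, sham comes first, and 5 values in a row are mice 1 to 5. KPC mouse 1 stood apart: mitochondrially encoded genes took 15.7% of its TPM and 26.3% to 33.3% in the other 9 libraries, and its median correlation with the other libraries was 0.908 against 0.939 to 0.959. Adipocyte markers were abundant in both groups, and their summed level over 12 genes was 39373 to 47959 TPM in the sham and 39801 to 47499 TPM in the KPC group. Of the 12, 7 had a negative difference and 5 a positive one. Adipoq, the adiponectin gene, reached 5245 TPM among sham mice and 4899 TPM among KPC mice. Summed skeletal muscle markers ran from 127 to 5898 TPM over sham libraries, the highest being sham mouse 5, and from 105 to 371 TPM over KPC libraries. All 11 of these muscle genes had a negative difference. All 7 red cell markers had a positive difference, and they summed to 4748 to 12870 TPM over sham libraries and to 8550 to 40718 TPM over KPC libraries, the highest being KPC mouse 1. Prm2, Tnp1 and Lcn5 (testis and epididymis), Hsd3b1 (steroidogenic cells) and Cela2a (pancreatic acinar cells) were listed at 0 in all 10 libraries. Of the same lists Cela1 stood at 16.5 ± 4.42 and 18.7 ± 8.54 TPM, Insl3 at 3.30 ± 2.05 and 5.58 ± 1.09 TPM and Star at 2.45 ± 0.392 and 2.26 ± 0.697 TPM, and every other gene averaged at most 0.264 TPM in either group. Pancreatic acinar markers summed to 12.4 to 22.0 TPM over sham and to 11.5 to 32.4 TPM over KPC libraries. The 6 epithelial tumour markers summed to 13.4 to 33.2 TPM over sham and to 17.9 to 42.8 TPM over KPC libraries. KPC mouse 1 was the highest for both sums. Of the 4 tumour markers tested, 3 had a positive difference and 1 a negative one.

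**Figure D1:**
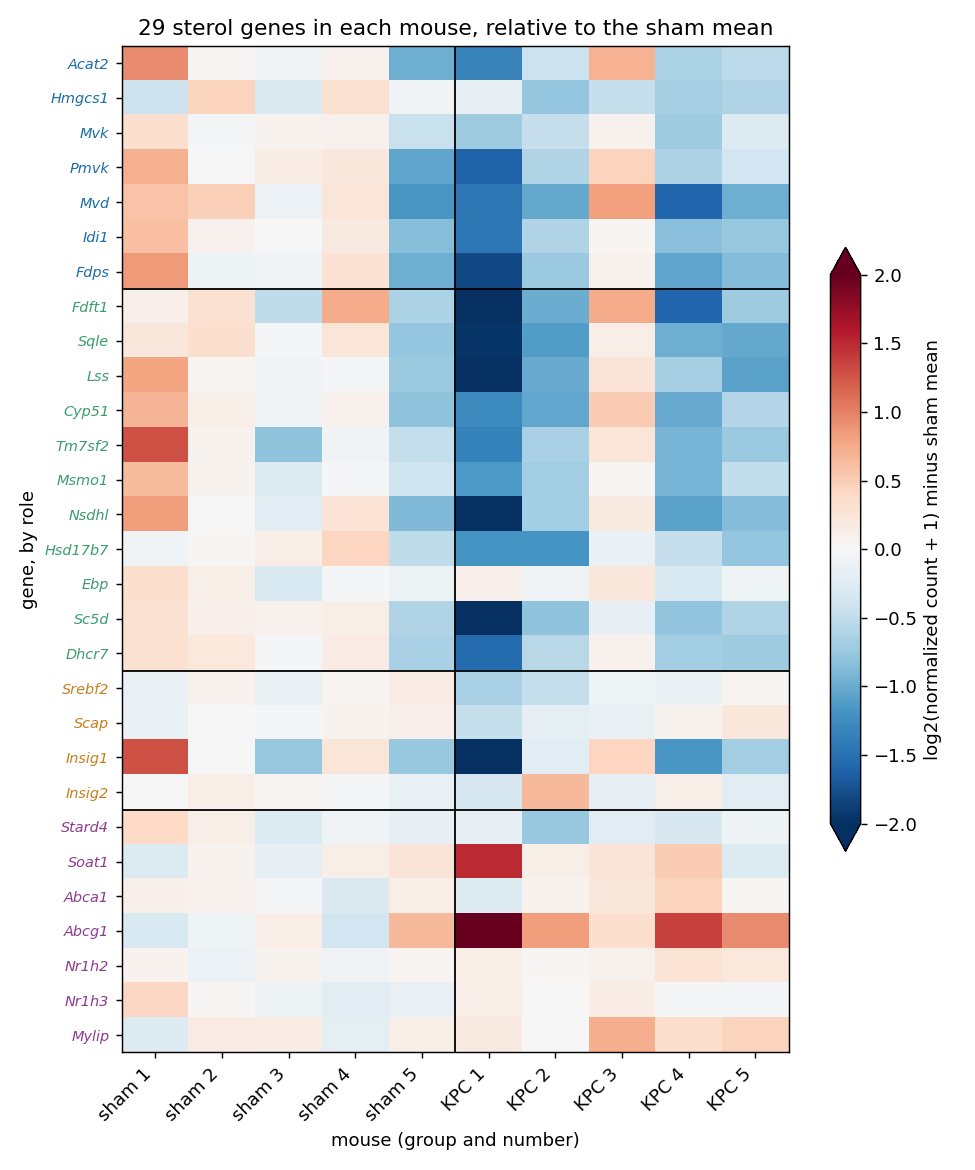
Heat map of 29 sterol genes (rows, grouped by role) in 10 mice (columns), as log2(normalized count + 1) minus the mean of the 5 sham mice; blue is lower and red is higher, and colours saturate at the ends of the bar. KPC mouse 1 was the lowest KPC mouse for 14 of the 18 synthesis enzymes and KPC mouse 3 the highest for 17, while sham mouse 5 was the lowest sham mouse for 15.

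No gene of cholesterol synthesis passed the test, and the differences pointed one way. All 18 enzymes had a lower mean in the KPC group, a negative log2 difference, where 53.1% of all tested genes did, and their median was -0.70 against -0.017 over all tested genes. The mice whose titles open with the number 1 carried most of this. They are mice 1 and 2 of each group, and so include KPC mouse 1. The mean difference of the 18 was -1.39 among them, against 0.19 within number 2 and -0.093 within number 4. Gene by gene the differences ran from -0.99 for Sqle to -0.028 for Ebp. By limma, 0 of the 29 genes passed at an adjusted p under 0.05, where 0.0563% of all tested genes did. An unadjusted limma p under 0.05 was reached by 11 of the 18 enzymes, all lower in KPC, where 5.91% of tested genes were lower at that p. None of the 29 genes had groups without overlap, where 4.03% of tested genes did: 1.28% with every KPC mouse below every sham mouse and 2.75% with every KPC mouse above. Without KPC mouse 1 the enzymes lower at an unadjusted limma p under 0.05 numbered 5 of 18, where 5.26% of tested genes were lower at that p, and the median of the 18 was -0.57. Without KPC mouse 3 they numbered 16 (6.25% of tested genes), and without sham mouse 1 they numbered 4 (5.76%).

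Of the first segment, from acetyl-CoA to farnesyl diphosphate, 4 of 7 genes reached an unadjusted limma p under 0.05, and the median log2 difference was -0.56. Hmgcs1, which joins acetyl-CoA to acetoacetyl-CoA, stood at 51.4, 103, 66.2, 98.6 and 76.9 TPM in sham mice 1 to 5 and at 63.9, 42.5, 52.7, 51.2 and 51.0 TPM in KPC mice 1 to 5. In TPM all sham mice except mouse 1 lay above all KPC mice. On normalized counts KPC mouse 1, at 4167, lay above sham mouse 1 at 3508 and sham mouse 3 at 3811. The means of Hmgcs1 were 79.2 ± 21.8 and 52.3 ± 7.64 TPM (SD, n = 5), a log2 difference of -0.53 ± 0.18 with a limma adjusted p of 0.268. On normalized counts KPC mouse 1 was the lowest of its group for 14 of the 18 enzymes and sham mouse 1 the highest of its group for 14, but Hmgcs1 was among neither. On TPM these numbers were 16 and 11. Without KPC mouse 1 its difference was -0.62.

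Fdps, which makes farnesyl diphosphate for sterols and for protein prenylation, stood at 106, 60.5, 66.7, 83.7 and 34.5 TPM in sham mice 1 to 5. In KPC mice 1 to 5 its level was 17.5, 37.4, 65.8, 33.5 and 36.2 TPM. Sham mouse 5 lay among the KPC mice and KPC mouse 3 among the sham mice. Its log2 difference was -0.88 ± 0.36 (limma adjusted p of 0.334), a fold of 0.545 with a 95% interval from 0.313 to 0.948. Idi1, the isomerase that makes the reactive isoprenoid unit, stood at 47.7, 36.7, 36.8, 41.3 and 20.2 TPM in sham and at 12.1, 22.0, 33.9, 21.0 and 21.0 TPM in KPC mice. The same sham mouse 5 was lower than 4 of the 5 KPC mice. Its log2 difference was -0.72 ± 0.29, with a limma adjusted p of 0.328. Mvk, mevalonate kinase, had the smallest difference of the segment, -0.41 ± 0.18, with means of 34.3 ± 5.27 and 25.4 ± 5.73 TPM (SD, n = 5) and a limma adjusted p of 0.344.

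The other 3 genes of this segment had unadjusted limma p-values from 0.0899 to 0.272. Acat2, the cytosolic thiolase of the first step, had means of 76.4 ± 30.3 and 57.1 ± 30.8 TPM (SD, n = 5). Reads of Acat2 may be divided with its near copy Acat3, whose means were 0.834 and 2.06 TPM. Pmvk, phosphomevalonate kinase, differed by -0.56 ± 0.37. Mvd, the decarboxylase that follows, differed by -0.85 ± 0.46, and KPC mouse 3 at 27.8 TPM was above all 9 other mice for it, while the other KPC mice lay between 5.76 and 8.52 TPM.

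From the making of squalene to cholesterol, 7 of 11 genes reached an unadjusted limma p under 0.05, all lower in KPC. The median log2 difference was -0.75. Sqle, squalene epoxidase and a rate-limiting enzyme of the route, stood at 12.3, 14.5, 12.2, 14.4 and 7.10 TPM in sham mice 1 to 5. In KPC mice 1 to 5 it stood at 2.79, 5.10, 12.1, 6.32 and 5.76 TPM. All KPC mice except mouse 3 lay below the lowest sham mouse, which was mouse 5. Its means were 12.1 ± 2.99 and 6.42 ± 3.45 TPM (SD, n = 5), a log2 difference of -0.99 ± 0.34 and a fold of 0.503 with a 95% interval from 0.302 to 0.840, at a limma adjusted p of 0.274.

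Hsd17b7, a sterol reductase and the lowest of the enzymes in level, stood at 3.48, 4.11, 4.75, 5.72 and 3.00 TPM in sham and at 1.67, 1.71, 3.53, 3.17 and 2.42 TPM in KPC mice. KPC mice 1, 2 and 5 lay below all sham mice. The difference was -0.75 ± 0.23, with a limma adjusted p of 0.245, the smallest among the enzymes. Sc5d, a desaturase of the last steps and the highest of the enzymes in mean TPM in sham mice, stood at 102, 97.7, 103, 104 and 63.7 TPM in sham and at 20.9, 50.2, 78.0, 56.8 and 61.2 TPM in KPC mice. Only KPC mouse 3 exceeded sham mouse 5, and no KPC mouse reached the other 4 sham mice. Sc5d differed by -0.88 ± 0.30, with a limma adjusted p of 0.274.

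Lss, which folds epoxidized squalene into lanosterol, stood at 28.6, 18.8, 19.0, 18.7 and 11.5 TPM in sham and at 4.30, 8.74, 20.8, 12.5 and 8.92 TPM in KPC mice. KPC mouse 3 was above all sham mice but mouse 1, and KPC mouse 1 was the lowest of the 10. Nsdhl, a decarboxylating dehydrogenase, stood at 69.8, 43.5, 40.2, 55.1 and 24.7 TPM in sham and at 8.10, 26.0, 47.1, 22.3 and 24.3 TPM in KPC mice. Their log2 differences were -0.90 ± 0.37 and -0.96 ± 0.42. Msmo1, a methylsterol oxidase, had means of 22.4 ± 4.95 and 14.3 ± 4.58 TPM (SD, n = 5) and differed by -0.64 ± 0.24. Dhcr7, the reductase that yields cholesterol itself, had means of 17.3 ± 3.54 and 11.0 ± 4.08 TPM and differed by -0.68 ± 0.27. The limma adjusted p-values of these 4 genes ran from 0.299 to 0.357.

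Of the remaining 4 genes of the segment, Fdft1, squalene synthase, differed by -0.92 ± 0.47, Cyp51, the lanosterol demethylase, by -0.68 ± 0.34 and Tm7sf2, a sterol reductase, by -0.69 ± 0.38. Exons of Fdft1 and Cyp51 overlap those of Ctsb and Akap9 on the opposite strand, and an exon of Tm7sf2 overlaps Vps51, so part of their reads may come from these neighbours. Ebp, the sterol isomerase, stood apart from the other enzymes, with means of 32.7 ± 3.34 and 31.3 ± 3.03 TPM and a log2 difference of -0.028 with a 95% interval from -0.32 to 0.27. Its sign turned without KPC mouse 4 and without sham mouse 1. In KPC mouse 1, where Sqle and Sc5d were at their lowest, Ebp stood at 32.5 TPM.

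**Figure D2:**
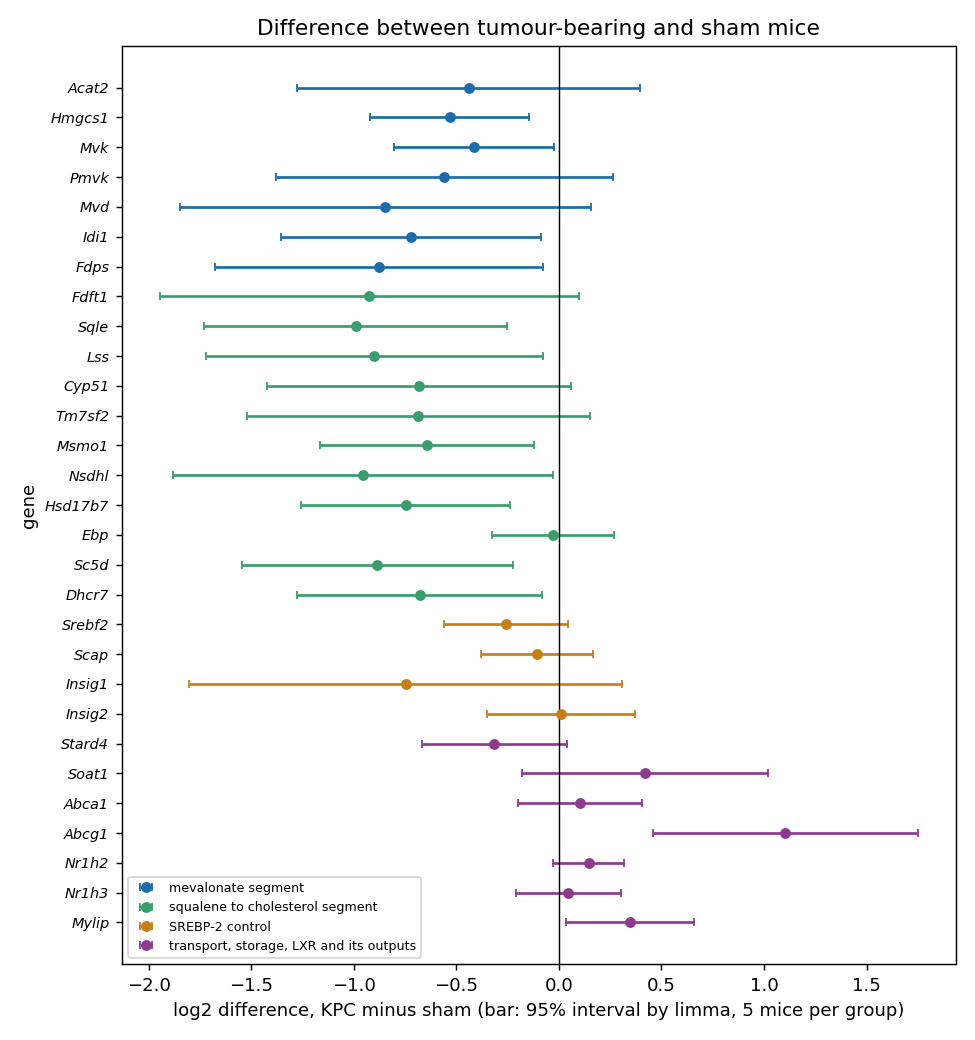
Log2 difference in KPC minus sham mice for each of the 29 genes (points) with its 95% interval by limma (bars, 5 mice per group), coloured by role. All 18 synthesis enzymes lie left of 0, from -0.99 for Sqle to -0.028 for Ebp, and Abcg1 lies farthest right at 1.10.

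The mice, and not only the groups, divided the enzymes. Averaged over the 18 enzymes and set relative to the sham mean, sham mice 1 to 5 lay at 0.50, 0.13, -0.13, 0.18 and -0.67 on the log2 scale. KPC mice 1 to 5 lay at -1.41, -0.75, 0.21, -0.86 and -0.67. KPC mouse 3 was within the sham range for 15 of the 18 enzymes, and sham mouse 5 was below the sham mean for all 18. KPC mouse 1 lay below the lowest sham mouse for 16 enzymes, KPC mouse 4 for 13, KPC mouse 2 for 9 and KPC mouse 5 for 8. Spread between mice of 1 group was also large for these genes. Its median SD over the 18 enzymes was 0.62 (log2), where genes of like abundance had a median of 0.21, and all 18 enzymes exceeded the median of their like genes.

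Each sample title opens with the number 1, 2 or 4, whose meaning the labels do not give. Among mice with number 1, the 18 enzymes averaged 0.31 in the 2 sham and -1.08 in the 2 KPC mice, and all 18 were lower in KPC. Among mice with number 2 they averaged 0.024 in 2 sham mice and 0.21 in 1 KPC mouse, and 5 of 18 were lower in KPC. Among mice with number 4 they averaged -0.67 in 1 sham mouse and -0.77 in 2 KPC mice, and 14 of 18 were lower in KPC. Sqle differed by -1.82 within number 1, by 0.025 within number 2 and by -0.23 within number 4. Hmgcs1 differed by -0.49, -0.46 and -0.58 within numbers 1, 2 and 4. With this number as a block, 4 of the 18 enzymes (Hmgcs1, Sqle, Hsd17b7 and Sc5d) kept an unadjusted limma p under 0.05, where 7.19% of tested genes were lower at that p, and the median difference of the 18 was -0.58.

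**Figure D3:**
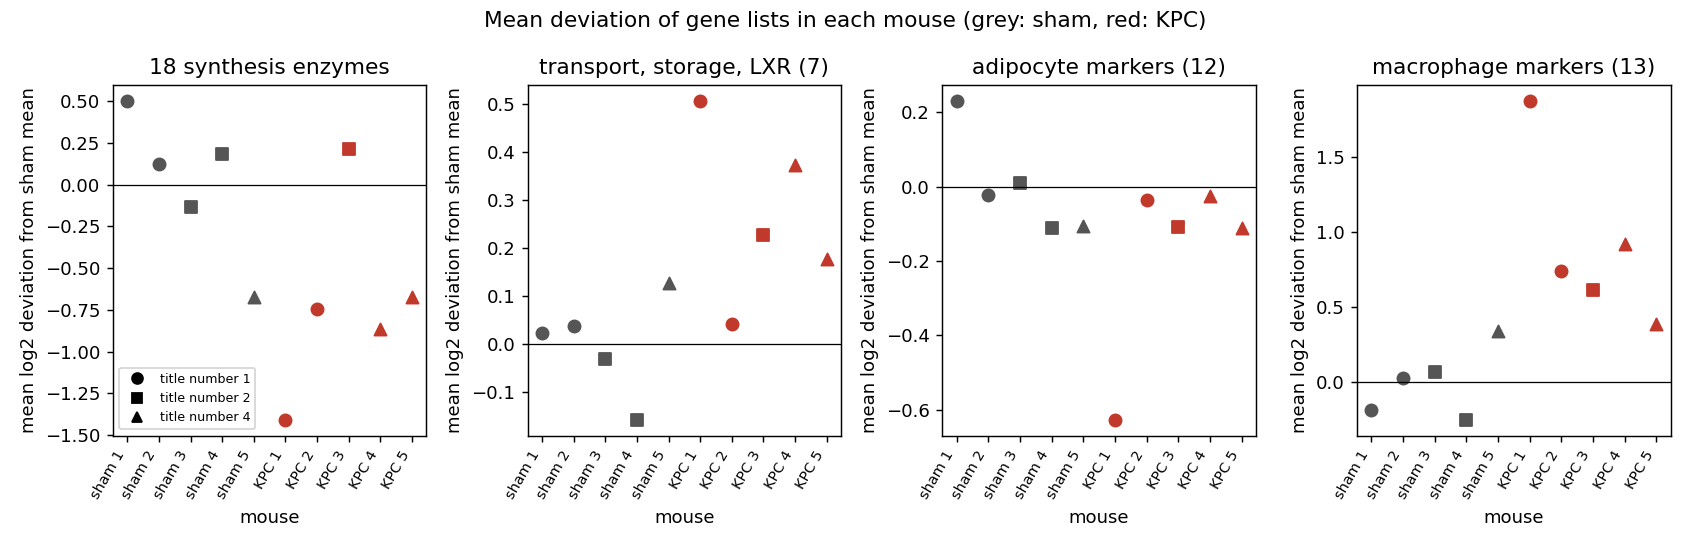
Mean log2 deviation from the sham mean in each of 10 mice (sham grey, KPC red; the marker shape gives the first number of the sample title) for the 18 synthesis enzymes, the 7 transport, storage and LXR genes, 12 adipocyte markers and 13 macrophage markers. For the enzymes, KPC mouse 3 at 0.21 lies with the sham mice and sham mouse 5 at -0.67 with the KPC mice.

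Among the 4 control genes, none reached an unadjusted limma p under 0.05, and the median log2 difference was -0.18. With the first number of the title as a block, Srebf2 did, at an unadjusted limma p of 0.0302 (log2 difference of -0.29, limma adjusted p of 0.297). Insig1, which retains SCAP when sterols are plentiful and is itself an SREBP target, was the highest of the 29 genes in level. It stood at 279, 127, 80.3, 158 and 79.0 TPM in sham mice 1 to 5 and at 28.6, 104, 163, 61.4 and 79.8 TPM in KPC mice 1 to 5. KPC mice 1 and 4 lay below every sham mouse, and KPC mice 2, 3 and 5 lay within the sham range. The log2 difference of Insig1 was -0.75 ± 0.48 (limma adjusted p of 0.511), and -0.42 without KPC mouse 1.

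Srebf2, the gene of SREBP2, stood at 9.79, 12.8, 11.6, 13.2 and 14.1 TPM in sham and at 7.23, 8.32, 10.8, 11.8 and 12.8 TPM in KPC mice. KPC mice 1 and 2 lay below every sham mouse, and the other 3 lay among them. Srebf2 differed by -0.26 ± 0.14, with a limma adjusted p of 0.432. Sham mouse 5, low for the enzymes, was the highest sham mouse for Srebf2. Scap, the escort, stood at 14.6 ± 1.74 and 13.5 ± 3.12 TPM and differed by -0.11 ± 0.13. Insig2, the second retention protein, stood at 50.8 ± 4.53 and 51.4 ± 15.3 TPM (SD, n = 5), and its log2 difference of 0.0094 had a 95% interval from -0.35 to 0.37 and turned negative under 5 alternatives.

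**Figure D4:**
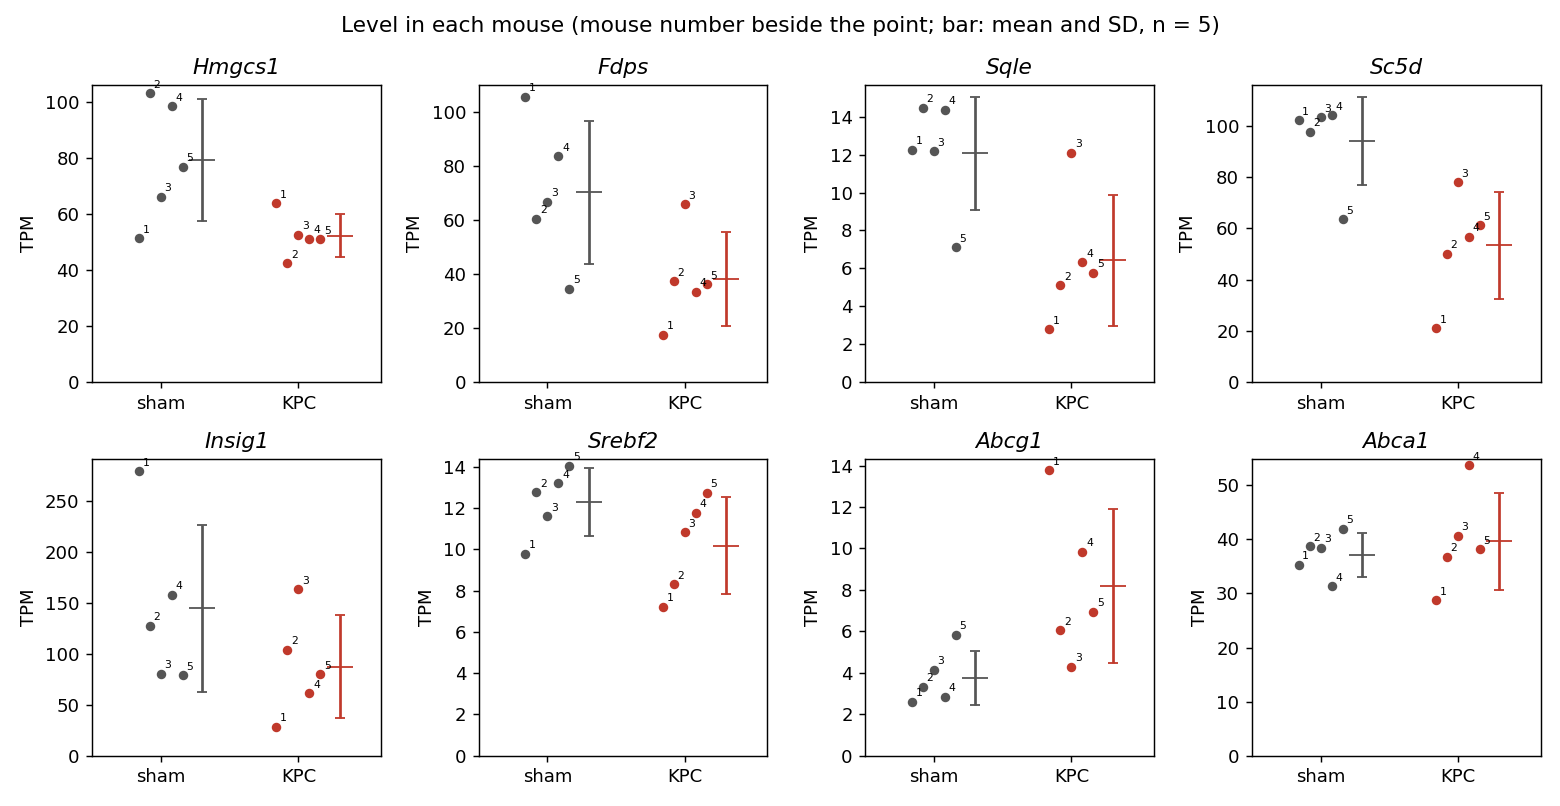
TPM of 8 genes in each mouse (points, with the mouse number) and the group mean with its SD (bars, n = 5). Sqle and Sc5d of KPC mouse 3 lie above sham mouse 5, Hmgcs1 of sham mouse 1 lies among the KPC mice, and Abcg1 is highest in KPC mice 1 and 4.

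The transport and LXR genes did not follow the enzymes: 6 of 7 had a positive log2 difference, with a median of 0.15. Of the 7, 2 reached an unadjusted limma p under 0.05, both higher in KPC, where 7.61% of tested genes were higher at that p. Abcg1, which passes cholesterol to high-density lipoprotein and is abundant in macrophages, stood at 2.60, 3.33, 4.15, 2.84 and 5.85 TPM in sham and at 13.8, 6.06, 4.29, 9.85 and 6.95 TPM in KPC mice. All KPC mice except mouse 3 lay above all sham mice. Its means were 3.75 ± 1.31 and 8.18 ± 3.71 TPM (SD, n = 5), a log2 difference of 1.10 ± 0.29 and a fold of 2.15 with a 95% interval from 1.37 to 3.36. The limma adjusted p was 0.180, the smallest of the 29 genes, and the difference was 0.87 without KPC mouse 1.

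Macrophage markers were higher in the same mice. All 13 of them had a positive difference, their summed level was 932 to 1520.4 TPM among sham and 1585 to 6237 TPM among KPC mice, and their mean deviations in KPC mice 1 to 5 were 1.87, 0.74, 0.61, 0.92 and 0.38. Adgre1, the F4/80 antigen, stood at 17.8 ± 4.64 and 32.0 ± 10.0 TPM. KPC mice 1 and 4 stood above the others for both Abcg1 and these markers. The lowest KPC mouse was mouse 3 for Abcg1 and mouse 5 for the mean deviation of the markers. The part of the markers in the Abcg1 difference was not tested. Adipocyte markers deviated by -0.63 in KPC mouse 1 and by -0.11 to -0.026 in the other 4 KPC mice, which is a smaller range than that of the enzymes. Red cell markers deviated by 2.36, 1.74, 0.39, 0.19 and 0.31 in KPC mice 1 to 5. The part of the adipocyte and red cell markers in the differences of the 29 genes was not tested either.

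Mylip, the ubiquitin ligase that LXR induces to remove lipoprotein receptors from the cell surface, stood at 13.3, 19.9, 21.0, 16.5 and 20.3 TPM in sham and at 19.1, 17.2, 28.1, 24.4 and 24.6 TPM in KPC mice. In TPM KPC mice 3, 4 and 5 lay above every sham mouse. On normalized counts KPC mouse 1 did too, at 1198 against at most 1183 in sham mice. Mylip differed by 0.34 ± 0.14, with a limma adjusted p of 0.332. Soat1, which esterifies cholesterol for storage, stood at 4.01, 5.63, 5.15, 6.12 and 6.80 TPM in sham and at 14.3, 5.59, 6.17, 8.26 and 4.54 TPM in KPC mice. KPC mouse 1 carried most of its difference of 0.42 ± 0.27, which was 0.15 without that mouse.

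Abca1, the export pump that loads cholesterol onto apolipoprotein A-I, stood at 35.3, 38.8, 38.5, 31.3 and 42.0 TPM in sham and at 28.7, 36.8, 40.7, 53.7 and 38.2 TPM in KPC mice. In TPM the groups overlapped almost wholly, with the lowest and the highest of the 10 mice both in the KPC group. On normalized counts sham mouse 4 was the lowest, at 5965, below KPC mouse 1 at 6099. The log2 difference was 0.10 with a 95% interval from -0.20 to 0.40 (limma adjusted p of 0.771). Nr1h3, LXR alpha, stood at 82.8, 69.8, 68.8, 62.5 and 65.2 TPM in sham and at 70.8, 65.9, 72.7, 73.1 and 68.5 TPM in KPC mice. The difference was 0.047 on the log2 scale, with a 95% interval from -0.21 to 0.30. Nr1h2, LXR beta, stood at 44.9 ± 3.75 and 48.8 ± 6.06 TPM and differed by 0.15 ± 0.08. Stard4, a carrier of sterol between membranes and itself an SREBP target, was the 1 gene of this set with a negative difference, at 4.87 ± 0.586 and 3.86 ± 0.686 TPM (SD, n = 5) and -0.32 ± 0.16.

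In sham fat the 29 genes spanned a wide range of level. Insig1, Sc5d and Hmgcs1 were the highest, at 145, 94.2 and 79.2 TPM on average, and Abcg1, Hsd17b7 and Stard4 the lowest, at 3.75, 4.21 and 4.87 TPM. Within the route, Fdft1 and Sqle, the enzymes that commit farnesyl diphosphate to sterol, stood at 11.9 ± 4.84 and 12.1 ± 2.99 TPM, below Fdps at 70.2 ± 26.6 TPM in every sham mouse.

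Other genes of the pathway were read from a pair of longer lists. Of 18 tested further genes of cholesterol synthesis and SREBP handling, 0 passed by limma, 16 had a negative difference, with a median of -0.17, and 3 were lower and 1 higher at an unadjusted p under 0.05. Erlin1, an endoplasmic reticulum protein that restrains SREBP, stood at 12.8 ± 1.01 and 15.8 ± 2.50 TPM and differed by 0.33 ± 0.13. The limma adjusted p of Erlin1 was 0.314.

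Of 27 tested further genes of sterol transport, storage and oxysterols, 0 passed by limma, 18 had a positive difference, with a median of 0.19, and 6 were higher and 0 lower at an unadjusted p under 0.05. Ch25h, which makes the oxysterol that blocks SREBP processing and is induced by interferon, had means of 0.697 ± 0.326 and 2.70 ± 0.867 TPM (SD, n = 5). Every KPC mouse, from 1.73 to 3.84 TPM, lay above every sham mouse, from 0.471 to 1.27 TPM. Its log2 difference was 1.95 ± 0.31, with a limma adjusted p of 0.0605. Pltp, the phospholipid transfer protein and an LXR target, stood at 127 ± 35.0 and 203 ± 64.0 TPM and differed by 0.70 ± 0.21 (limma adjusted p of 0.243). Apoe, the apolipoprotein that macrophages and adipocytes release, stood at 3559 ± 1098 and 5667 ± 1591 TPM and differed by 0.72 ± 0.27 (limma adjusted p of 0.295). Nceh1, a cholesteryl ester hydrolase, differed by 0.56 ± 0.21 (limma adjusted p of 0.299).

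On GRCm38 with the GENCODE vM21 annotation all 29 genes are protein-coding. On the plus strand lie Hmgcs1 (ENSMUSG00000093930, chromosome 13, 119690379 to 119708260), Sqle (ENSMUSG00000022351, chromosome 15, 59315077 to 59331192), Insig1 (ENSMUSG00000045294, chromosome 5, 28071363 to 28078662), Srebf2 (ENSMUSG00000022463, chromosome 15, 82147181 to 82205379), Abcg1 (ENSMUSG00000024030, chromosome 17, 31057675 to 31117988) and Mylip (ENSMUSG00000038175, chromosome 13, 45389742 to 45412022). On the minus strand lie Sc5d (ENSMUSG00000032018, chromosome 9, 42251595 to 42264256), Fdps (ENSMUSG00000059743, chromosome 3, 89093588 to 89101959) and Hsd17b7 (ENSMUSG00000026675, chromosome 1, 169949535 to 169969241). Exons of 6 of the 29 genes overlap exons of a gene on the other strand, and exons of 3 overlap another gene on the same strand.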

How the data were processed

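The tools named by the submitters' processing notes are Salmon, DESeq2 and DESeq, with the build mm10; versions, annotation and strand setting were not stated. The authors deposited 2 tables, 1 of normalized counts, treated here as a non-negative signal, and 1 of TPM. All 20 sample columns matched 1 sample each by title. After 1 scale per library was removed, the log2 ratio of the tables within a gene had a median SD of 0.00041 over 10131 genes, so they differ by gene and library scales. Of normalized counts up to 30, 12.3% lay within 0.05 of a whole number, and no count model was run.

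The 14203 genes whose normalized counts averaged at least 10 entered limma 3.58.1 (R 4.3.3) on log2(normalized count + 1), with a variance trend, two-sided, adjusted by Benjamini and Hochberg over all of them at 0.05. Nothing in the labels says how mice were housed, and p-values measure the spread between these samples. The fit was tested on simulated data. Genes and lists were chosen with earlier results of these data known, so no list was tested. All 29 genes were named, with full values for those at an unadjusted p under 0.05 and for a fixed set, and up to 4 of each longer list by p. Acat3, Ctsb, Akap9, Vps51 and the printed promoters were chosen after values or positions were seen. Some genes of the longer lists that this rule names are not reported here. Alternatives covered TPM, pseudocounts, filters, quantile scaling, the variance model, library weights, blocks and each mouse left out.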

Additional observations from a re-analysis of the deposited data

Results flagged for a closer look

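In a group of 5 mice, a value was singled out where its gap to the nearest other mouse was above 0.71 of the range of the group on the log2 scale. Of 58 groups examined (29 genes in sham and in KPC mice), 2 met this, and chance alone gives about 1 in 20. Sc5d was low in sham mouse 5, with a gap of 0.746 of the sham range, at 63.7 TPM against 97.7 to 104 TPM in the other 4 sham mice. Mvd was high in KPC mouse 3, with a gap of 0.748 of the KPC range, at 27.8 TPM against 5.76 to 8.52 TPM in the other 4 KPC mice. Sham mouse 5 and KPC mouse 3 were also the mice that lay with the other group over the 18 synthesis enzymes.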

How the results depend on the processing

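No gene of the 29 passed at an adjusted p under 0.05 under any alternative run, and the lowest adjusted p was 0.0526, for Abcg1 with library weights by limma. The count of genes lower in KPC at an unadjusted p under 0.05 (11) ran from 4 without sham mouse 1 to 17 without KPC mouse 3, and was 5 without KPC mouse 1. The count higher (2) ran from 1 to 2 with a mouse left out, was 1 on TPM + 1 and was 3 with library weights. Groups without overlap numbered 0 to 2 above and 0 to 4 below with a mouse left out, where 2.98% to 4.49% of tested genes lay above and 1.58% to 2.85% below. Over the same fits the median of the 18 enzymes ran from -0.91 to -0.57, of the first segment from -0.82 to -0.50, of the squalene segment from -0.98 to -0.59, of the control genes from -0.26 to -0.09 and of the transport genes from 0.12 to 0.18.

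The number in the description (1 to 5) as a replicate block gave 6 genes lower in place of 11 (5.99% of tested genes), and the first number of the title as a replicate block gave 5 (7.19%), 1 of which, Srebf2, was not among the 11. Labels do not say that either number pairs mice. Correlations between a sham and a KPC mouse were taken over all tested genes after each gene's group mean was removed. They ran from 0.0051 to 0.19 for mice with the same description number, and 2 of the 5 sham mice matched their own number best. Over 8 pairs with the same title number they ran from -0.029 to 0.19, with a median of 0.042, and 3 were over 0.1. Over 17 pairs with different title numbers they ran from -0.24 to 0.16, with a median of 0.0052, and 1 was over 0.1.

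Signs turned for Insig2 on TPM + 1 (-0.023) and without KPC mouse 2, KPC mouse 4, sham mouse 4 or sham mouse 5 (-0.15 to 0.095 over mice left out), for Ebp without KPC mouse 4 or sham mouse 1 (-0.10 to 0.057) and for Nr1h3 without sham mouse 4 (-0.0047 to 0.15). The cause was not tested. Read depth per library is not given, so counting intervals are not printed.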
